A study of Mus musculus with 12 samples.

Results

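The comparison of Tet1 mutant with control spinal cord at 4 days post lesion (4dpl) used 6 of the 12 RNA-seq libraries of the series, 3 labelled Tet1 cKO and 3 labelled wildtype, chosen by their labels alone. Control mice were Olig1+/+;Tet1fl/fl and mutant mice were Olig1cre/+;Tet1fl/fl, so all animals carried floxed Tet1 alleles and only the mutants carried cre. Cre is carried at 1 Olig1 allele and acts in cells that use the Olig1 promoter, mainly the oligodendrocyte lineage, so effects of cre, of the altered Olig1 allele and of Tet1 loss cannot be told apart in this design. The mice were at postnatal day 60 and had received lysolecithin (LPC), a lipid that strips myelin, in the ventrolateral white matter. Tissue was dissociated and enriched for oligodendroglial cells on a Percoll gradient with no cell sort, so each library mixes cell types. The remaining 6 libraries, 3 per genotype, came from unlesioned cord and are used here as reference. The paper describes this tissue as the opposite side of injected cords, so these libraries may share animals with those at 4dpl, which the labels do not give, and the fits treat all 12 as independent. The labels do not say how many animals entered a library, and p-values measure the spread between these libraries.

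TET enzymes oxidise methylcytosine in DNA to hydroxymethylcytosine, a step toward removal of the methyl mark, and Tet1 is one of the 3 genes of the family. After LPC, myelin debris is cleared by microglia and by macrophages from the blood, which take up lipid and raise genes of lysosomes and sterol export. Oligodendrocyte progenitors then divide and differentiate into cells that make new myelin, a process that needs transcription factors such as Olig2 and Sox10, cholesterol and sphingolipid synthesis.

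Levels are given as CPM, counts scaled to a common library size with TMM factors, and differences as log2 (mutant minus control) from an edgeR quasi-likelihood fit to all 12 libraries, with standard errors (SE). Total counts in the 6 libraries at 4dpl were between 46226566 and 67251544. No gene was called higher or lower in the mutant at p below 0.01 and Benjamini-Hochberg adjusted p below 0.05 among 31109 genes tested, a background of 0% in each direction, and the smallest adjusted p was 0.185 (edgeR). At an unadjusted p below 0.05, 1602 genes (5.15% of those tested) were higher and 551 (1.77%) were lower, 2153 in all. DESeq2 fitted to the 6 libraries called 510 of 22083 genes higher (2.31%) and 101 lower (0.457%), so the count of called genes depended on the tool. The levels of 2282 genes (7.34%) were higher in each of the 3 mutant libraries than in each control library, and those of 1691 genes (5.44%) were lower in each. Among the 13966 genes with a mean log2 CPM of at least 1, these counts were 1350 and 1037. Where a gene is described below as higher or lower, the words refer to the levels of the libraries and not to a call.

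One mutant library, label replicate 3, stood apart by its oligodendrocyte RNA. Mean log2 CPM over 15 markers of mature oligodendrocytes was 9.41, 9.26 and 9.34 in control replicates 1 to 3, and 9.26, 9.51 and 10.70 in mutant replicates 1 to 3. Replicates 1 and 2 of the mutant thus lay near the controls and replicate 3 far above them. All 15 markers had a higher fitted mean in the mutant, with a median log2 difference of 0.67, and without replicate 3 the median was 0.14 with 10 of 15 higher. This library also correlated least with the others across 13966 expressed genes, with Pearson r from 0.928 to 0.948 against 0.955 to 0.976 for all other pairs. Values without it are therefore given below for the leading genes and for the median of each list. Without it, 1393 genes (4.1% of 33978 tested) were higher and 411 (1.21%) were lower at an unadjusted p below 0.05, and again no gene was called. Of the 1602 genes higher with it, 1596 kept the sign and 953 kept a p below 0.05 without it. Of the 551 lower genes, 551 kept the sign and 232 kept a p below 0.05.

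The marker lists were compared by an exact permutation test, in which no list of 3 against 3 libraries can reach a p below 0.1. Of 14 marker lists, only mural cell and fibroblast markers had libraries that did not overlap, with a mean log2 CPM of 2.25 ± 0.07 in the mutant and 2.74 ± 0.42 in the control (SD, 3 libraries each; exact permutation test, two-sided, p = 0.1, and 0.933 after Benjamini-Hochberg adjustment over the 14 lists). Neutrophil markers were highest in mutant replicate 2, at a mean log2 CPM of 11.99 against 9.95 and 10.49 in the other mutants and 10.09 to 10.84 in the controls. S100a8, an abundant neutrophil calcium-binding protein, showed the same, at 33056 CPM in mutant replicate 2 and between 6371 and 9937 CPM in the other 5 libraries. Infiltrating and border macrophage markers were lowest in mutant replicate 3, at 4.98 against 5.63 to 6.56 in the other 5. Every marker of the microglia, macrophage, astrocyte, neutrophil and lymphocyte lists was above 1 CPM in at least 1 library at 4dpl, so the preparations held many cell types besides oligodendroglia. In such bulk samples fewer cells of a type and less RNA per cell cannot be told apart.

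**Figure D1:**
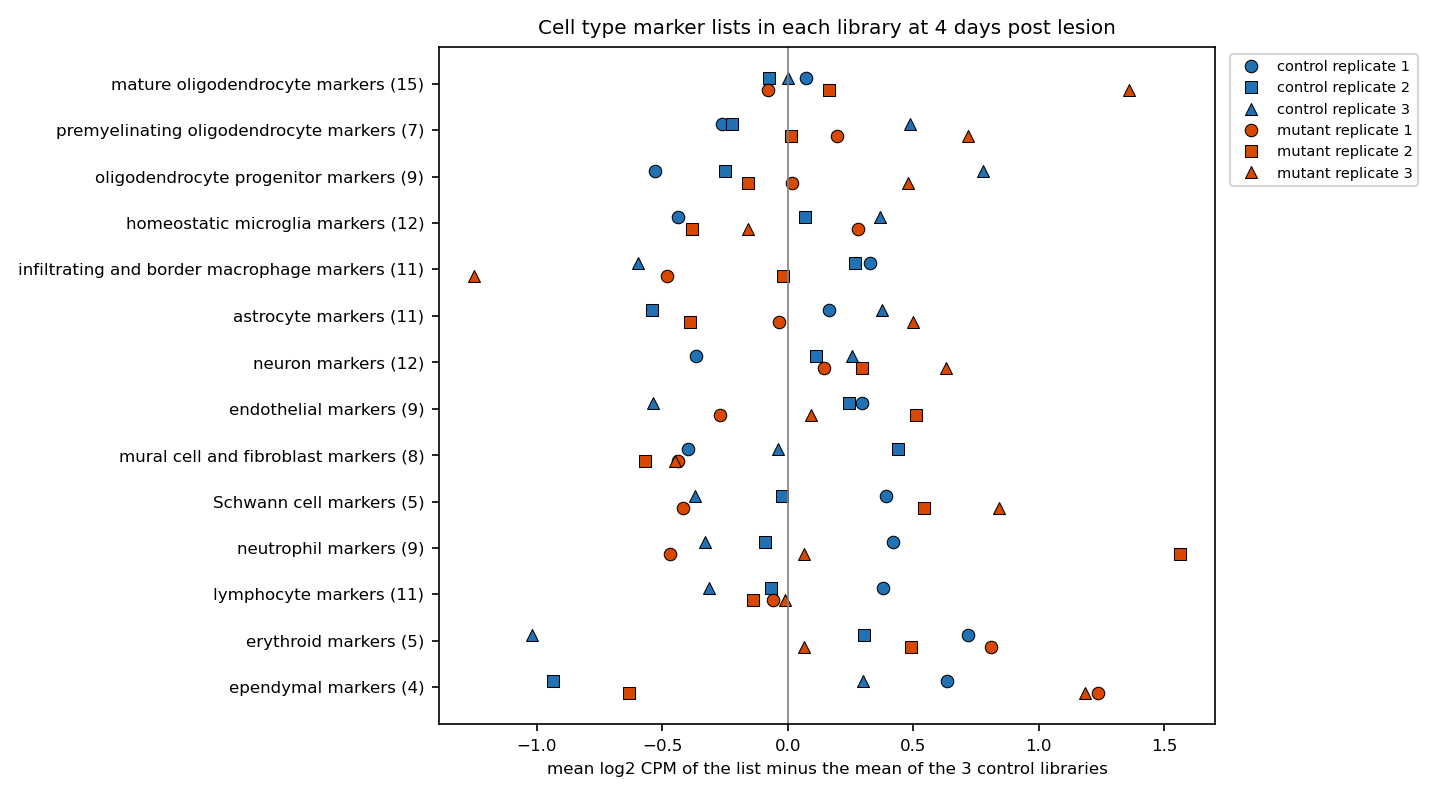
Mean log2 CPM of each cell type marker list in each library at 4dpl, minus the mean of the 3 control libraries, with the number of genes in brackets. Blue symbols are control and orange symbols mutant libraries, with circles, squares and triangles for replicates 1 to 3. Mutant replicate 3 lies far to the right for mature oligodendrocyte markers and to the left for macrophage markers, and mutant replicate 2 to the right for neutrophil markers.

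The gene-level count of Tet1 did not set the genotypes apart. Tet1 was at 12.5, 11.7 and 12.05 CPM in the controls and at 13.4, 10.9 and 21.5 CPM in the mutants, a log2 difference of 0.34 ± 0.27 (SE) that was 0.01 without replicate 3. The high value was that of the oligodendrocyte-rich library, and the other mutant values bracketed the controls. The count covers the whole gene in all cells of the preparation and so does not measure the floxed part alone, and mutant means the libraries labelled as such in all that follows. Tet2 (log2 difference -0.01) and Tet3 (0.08) were at the same level in both groups within the spread of the libraries, and their sign turned without replicate 3. Over the list of 18 enzymes and binding proteins of DNA methylation and hydroxymethylation, the median was 0.03 (0.05 without replicate 3) and no member had a p below 0.05 in either direction, against a median of 0.05 over all genes tested. Olig1, the locus that carries cre, was at 188, 201 and 199 CPM in the controls and at 192, 233 and 623 CPM in the mutants.

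Jund and Sox4 led the genes that were higher in the mutant. Jund encodes JunD, a member of the AP-1 transcription factors, and was at 10.6, 19.0 and 19.1 CPM in the controls and at 52.7, 61.0 and 116 CPM in the mutants. The lowest mutant was far above the highest control, and the log2 difference was 2.24 ± 0.34 (SE) and 1.81 ± 0.30 without replicate 3. Sox4, a SOX factor known to be expressed in immature cells, was at 4.46, 4.87 and 6.195 CPM in the controls and at 15.6, 14.3 and 34.1 CPM in the mutants. Its log2 difference was 2.04 ± 0.33, and 1.53 ± 0.26 without replicate 3. In unlesioned cord neither gene separated the genotypes. Jund was at 81.0, 69.4 and 45.7 CPM in unlesioned control and at 55.2, 70.0 and 56.9 CPM in unlesioned mutant cord. Sox4 was between 15.0 and 15.4 CPM in unlesioned controls and between 13.1 and 20.4 CPM in unlesioned mutants. The 3 control libraries at 4dpl were thus the lowest of the 12 for both genes, and mutant replicates 1 and 2 at 4dpl lay within the range of the unlesioned libraries.

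The 10 genes that headed the list, by p among well-expressed genes whose libraries did not overlap, mostly shared this arrangement. In 8 of the 10 the 3 control libraries at 4dpl lay below all 6 unlesioned libraries, and none of the 10 had a p below 0.05 between the genotypes in unlesioned cord, where log2 differences were between -0.19 and 0.40. The 10 were chosen for control libraries that lay below the mutant libraries at 4dpl, which favours such an arrangement. No share over all genes is given for it. Psip1, which encodes a chromatin reader that binds methylated histone tails, was at 24.1, 23.6 and 30.4 CPM in control and at 54.2, 61.0 and 88.1 CPM in mutant 4dpl libraries, against 45.04 to 59.6 CPM in the 6 unlesioned libraries. The same held for Nsmce4a, a subunit of the SMC complex used in DNA repair, at 21.1 to 24.6 CPM in control and 45.7 to 68.6 CPM in mutant libraries at 4dpl, and for Klhdc2, a substrate receptor of a ubiquitin ligase, at 21.1 to 23.8 and 39.9 to 71.0 CPM. Abhd17b, a depalmitoylating enzyme, was at 13.1 to 14.8 CPM in the controls and at 32.1, 38.4 and 91.1 CPM in the mutants. Fgfbp3, a carrier protein for fibroblast growth factors, had a log2 difference of 2.05 ± 0.39. The exceptions were Smtnl2 and Timp2, whose control levels at 4dpl reached those of unlesioned cord. Timp2, an inhibitor of matrix metalloproteinases, was at 154, 189 and 239.7 CPM in the controls and at 492, 461 and 631 CPM in the mutants at 4dpl, while the unlesioned libraries of both genotypes held 184 to 314 CPM. For Timp2 it was therefore the mutant at 4dpl that stood above the other 3 groups. Mutant replicate 3 was the highest mutant library in all 10 genes. Without it the log2 differences of the 10 were between 1.04 and 1.81, against 1.28 to 2.24 with it, and all 10 still had an unadjusted p below 0.05 (edgeR adjusted p of 0.185 for each in the fit to all libraries). DESeq2 called all 10 with the 6 libraries and also with the 5 that leave out replicate 3. The 10 were chosen by p and by lack of overlap in these same libraries. These counts therefore describe the genes and do not test them.

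**Figure D2:**
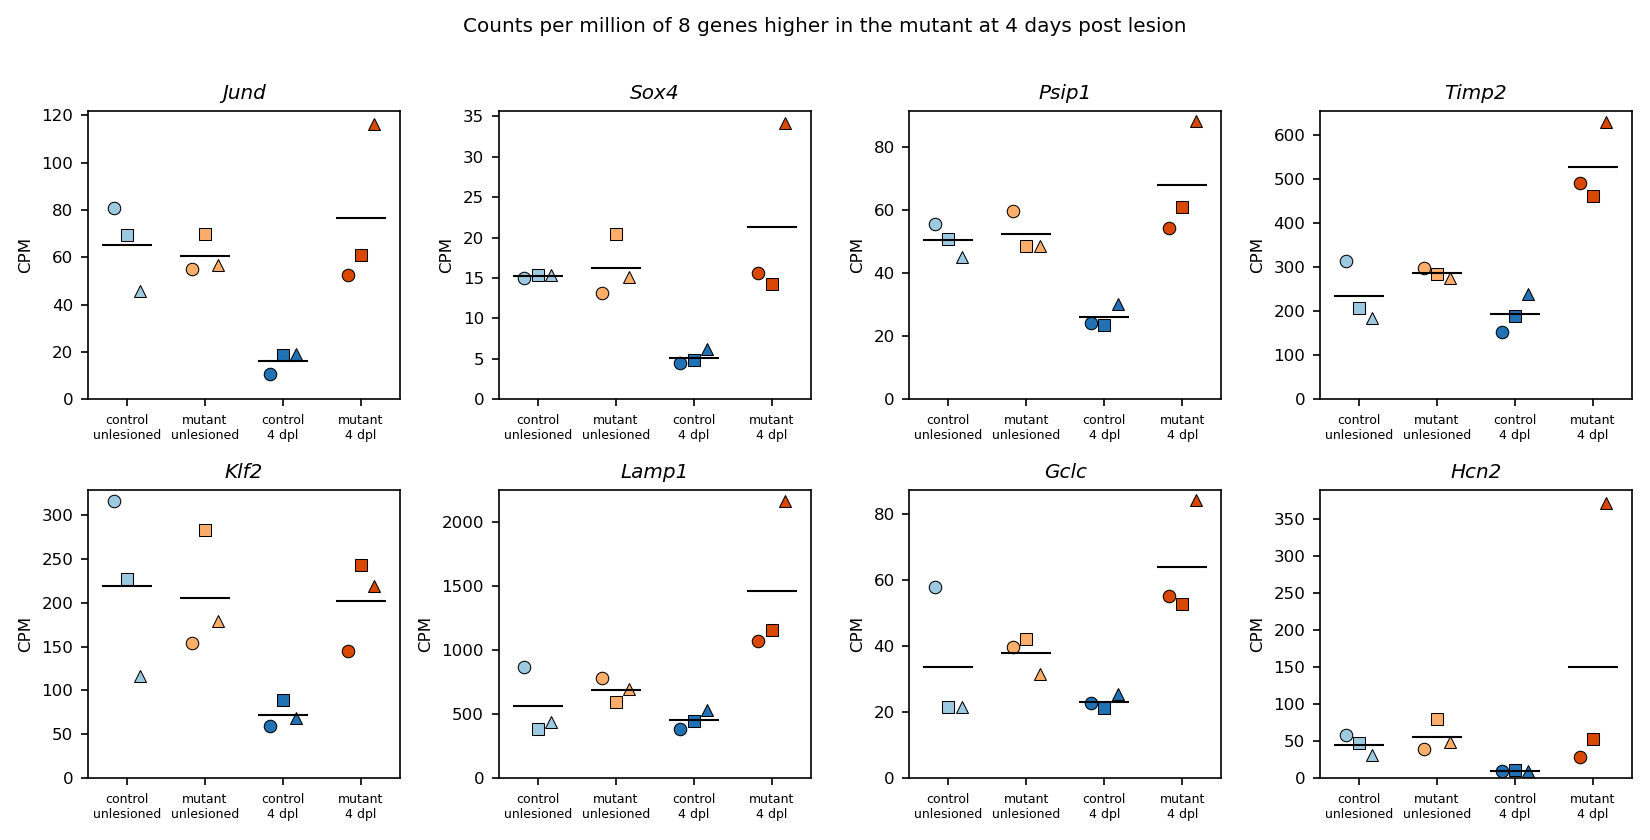
CPM of 8 genes that were higher in the mutant at 4dpl, in each of the 12 libraries. Circles, squares and triangles are replicates 1 to 3 of a group, numbered within the group, and the bars are group means. For Jund, Sox4, Psip1, Klf2 and Hcn2 the control libraries at 4dpl are the low group, and for Timp2, Lamp1 and Gclc the mutant libraries at 4dpl are the high group.

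Since TET enzymes act on methylated CpG, the upstream sequences of 2 leading higher genes, of 1 leading lower gene and of Hcn2, which was among the 5 leading higher genes without replicate 3, are shown to give the CpG content of the promoters involved. Each line holds the 250 bases before the RefSeq transcription start (GRCm38.p6), 5′ to 3′ on the gene's strand, with each CpG in capitals.
Sox4, chr13:28953700-28953949, minus strand: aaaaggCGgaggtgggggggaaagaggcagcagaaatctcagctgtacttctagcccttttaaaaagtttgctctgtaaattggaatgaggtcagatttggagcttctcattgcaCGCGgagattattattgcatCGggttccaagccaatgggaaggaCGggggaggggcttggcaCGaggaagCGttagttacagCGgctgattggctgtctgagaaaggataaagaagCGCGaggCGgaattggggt
Abhd17b, chr19:21653059-21653308, plus strand: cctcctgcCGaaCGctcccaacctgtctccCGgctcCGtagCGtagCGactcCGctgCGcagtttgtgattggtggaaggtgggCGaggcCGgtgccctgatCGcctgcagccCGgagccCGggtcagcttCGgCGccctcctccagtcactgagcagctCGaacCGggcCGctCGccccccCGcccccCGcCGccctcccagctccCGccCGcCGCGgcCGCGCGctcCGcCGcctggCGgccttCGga
Hcn2, chr10:79716384-79716633, plus strand: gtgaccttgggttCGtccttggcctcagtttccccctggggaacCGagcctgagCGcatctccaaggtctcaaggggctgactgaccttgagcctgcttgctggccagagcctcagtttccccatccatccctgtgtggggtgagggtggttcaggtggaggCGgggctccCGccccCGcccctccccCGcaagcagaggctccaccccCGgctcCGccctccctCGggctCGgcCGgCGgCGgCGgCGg
Vcan, chr13:89742513-89742762, minus strand: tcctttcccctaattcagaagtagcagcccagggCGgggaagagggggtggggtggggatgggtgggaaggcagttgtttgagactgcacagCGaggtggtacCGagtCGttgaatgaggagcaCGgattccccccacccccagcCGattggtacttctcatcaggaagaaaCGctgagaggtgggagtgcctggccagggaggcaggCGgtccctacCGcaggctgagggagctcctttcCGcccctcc
These windows held 11, 33, 16 and 10 CpG, against a median of 5 over 27025 promoters of that length. The printed windows are examples, and the comparison was not limited to promoters of genes expressed here. Whether CpG content bears on the differences was not tested. Of all promoters, 35.5% held as many CpG as that of Sox4 and 3.85% as many as that of Abhd17b. A promoter was found for 8 of the 10 leading higher genes, with 3 to 33 CpG (median 12), and for 9 of the 10 leading lower genes, with 2 to 26 (median 10). The ranges overlapped. The GC box GGGCGG, read on both strands, was in 3 of the 8 and 6 of the 9 promoters and in 32.7% of all. The AP-1 letters TGACTCA, also on both strands, were in none of the 17 and in 4.47% of all. The RefSeq windows of Jund, Nsmce4a, Tlcd2 and Acp5 lie 1210, 25737, 6335 and 5113 bases from the start of the gene in the annotation used for counting. They are included in these counts and are not shown.

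Early response genes had no common direction, and most chaperone and stress genes were lower. Of 20 AP-1 and immediate early genes, 3 had a p below 0.05, all higher in the mutant (Jund, Klf2 and Ier5), and the median log2 difference was 0.08 (0.05 without replicate 3). Klf2, a Krüppel-like factor of quiescent endothelial and immune cells, was at 59.0, 89.3 and 68.8 CPM in control and at 145, 243 and 219 CPM in mutant libraries at 4dpl, with a log2 difference of 1.48 ± 0.36 (1.42 ± 0.40 without replicate 3). Ier5 was at 112, 205 and 241 CPM in the controls and at 350.4, 338 and 398 CPM in the mutants. As for Jund, the unlesioned libraries were not low, at 116 to 315 CPM for Klf2 and 213 to 337 CPM for Ier5. Hspa1b, an inducible heat shock chaperone, was lower, at 80.0, 66.8 and 54.996 CPM in the controls and at 45.04, 37.0 and 38.9 CPM in the mutants. The 17 chaperone and stress genes had a median of -0.38 (-0.26 without replicate 3), with 14 of 17 lower and 1 with a p below 0.05.

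Both genes of glutamate-cysteine ligase, which makes the first bond of glutathione, were higher in the mutant. Gclc, the catalytic subunit, was at 22.8, 21.4 and 25.4 CPM in the controls and at 55.1, 52.8 and 84.1 CPM in the mutants (log2 difference 1.46 ± 0.35, and 1.22 ± 0.36 without replicate 3). Gclm, the modifier subunit, was at 62.9, 46.5 and 35.9 CPM in the controls and at 126, 131 and 111 CPM in the mutants (1.34 ± 0.35, and 1.41 ± 0.39 without replicate 3). The oligodendrocyte-rich library was the lowest of the mutants for Gclm. The rest of the list of 12 NRF2 and glutathione genes did not follow, since 8 of 12 were lower and the median was -0.28 (-0.15 without replicate 3). Slc25a33, a mitochondrial carrier of pyrimidine nucleotides and the solute carrier with the smallest p, was at 6.75, 5.81 and 5.73 CPM in the controls and at 12.1, 15.4 and 18.3 CPM in the mutants. Over 373 solute carriers tested, 17 were higher and 9 lower at a p below 0.05, close to the 5.15% and 1.77% of all genes, and the median was 0.03 (-0.000297 without replicate 3). Slc12a2, a sodium, potassium and chloride cotransporter, was at 103, 126 and 137 CPM in the controls and at 133, 159.7 and 428 CPM in the mutants, so that its log2 difference of 0.98 ± 0.40 was 0.26 ± 0.31 without replicate 3. Slc22a23 was at 15.8, 16.5 and 21.0 CPM against 29.4, 26.0 and 92.4 CPM, with log2 differences of 1.47 ± 0.43 and 0.64 ± 0.32. The libraries of Slc22a23 did not overlap, while those of Slc12a2 did.

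Lamp1 stood against the other lysosomal genes. Lamp1, a major glycoprotein of the lysosomal membrane, was at 388, 450.4 and 535 CPM in the controls and at 1072, 1161 and 2162 CPM in the mutants, with a log2 difference of 1.68 ± 0.37 (1.28 ± 0.36 without replicate 3). The other 15 of the 16 lysosomal genes were lower in the mutant, and the median of the list was -0.57 (-0.43 without replicate 3). Ctsd, which encodes cathepsin D and was the most abundant of them, was at 14947, 15569 and 17092 CPM in the controls and at 12847, 9247 and 6706 CPM in the mutants. None of the 15 had an unadjusted p below 0.05 in edgeR, while DESeq2 called one of them, Atp6v0d2, a subunit of the proton pump, lower in the 6 and in the 5 libraries. In 8 of the 15 the libraries of the groups did not overlap, an arrangement found for 5.44% of all genes in this direction.

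Oligodendrocyte lineage factors were higher in the mutant with replicate 3 and had no common direction without it. Of 11 lineage transcription factors 10 were higher, 2 with a p below 0.05, and the median was 0.60. Without replicate 3, 6 were higher and 5 lower, and the median was 0.12. Olig2, the transcription factor that specifies the lineage, was at 5.77, 9.41 and 9.58 CPM in the controls and at 12.6, 15.8 and 73.1 CPM in the mutants. Its log2 difference of 2.04 ± 0.51 was 0.78 ± 0.27 without replicate 3, and the libraries still did not overlap. In unlesioned cord Olig2 was at 16.2 to 20.9 CPM in all 6 libraries. Nkx6-2, a homeobox factor of myelinating cells, was at 61.0, 72.5 and 67.6 CPM against 93.4, 126 and 299 CPM, and Gal3st1, which makes the myelin lipid sulfatide, at 36.5, 35.7 and 39.0 CPM against 69.2, 89.1 and 275 CPM. For both genes all 3 mutants exceeded all controls. Gal3st1 had log2 differences of 1.96 ± 0.46 and, without replicate 3, 1.09 ± 0.34, and DESeq2 called Nkx6-2 and Gal3st1 in both the 6 and the 5 libraries. Hcn2, a channel opened by hyperpolarisation that is in none of the lists, was at 10.4, 11.2 and 10.1 CPM in the controls and at 28.4, 52.9 and 371 CPM in the mutants, with log2 differences of 3.84 ± 0.74 and 1.94 ± 0.35. Its unlesioned levels were 31.0 to 79.9 CPM. The value of replicate 3 was far beyond every other library of the series for Olig2 and Hcn2.

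Premyelinating markers showed no common direction, and most progenitor markers were lower in the mutant. Enpp6, a choline phosphodiesterase of newly forming oligodendrocytes, was at 112, 87.4 and 106 CPM in the controls and at 139.5, 150.4 and 320.4 CPM in the mutants. Fyn, a kinase active during myelination, was at 39.8, 41.6 and 73.3 CPM against 105, 77.2 and 143 CPM. These 2 were the members with a p below 0.05 among 7 premyelinating markers, whose median was 0.03 (0.02 without replicate 3). Of 9 progenitor markers 7 were lower, with a median of -0.15 (-0.34 without replicate 3, with 8 of 9 lower). None of the lower ones had a p below 0.05. C1ql1 was higher at 2.73, 2.85 and 10.7 CPM in the mutants against 0.52, 0.61 and 2.26 CPM in the controls. Among 11 SOX genes 10 were higher and 5 had a p below 0.05 (Sox2, Sox4, Sox11, Sox12 and Sox13), against 5.15% of all genes in this direction. Without replicate 3 only Sox4 had a p below 0.05. The median of the SOX list was 0.75 and 0.49 without replicate 3. The 22 cholesterol synthesis genes were all higher, 3 of them with a p below 0.05, with a median of 0.65. Without replicate 3, 18 of 22 were higher, none had a p below 0.05, and the median was 0.26. Msmo1, a sterol oxidase of the pathway, was at 197, 153 and 165 CPM in the controls and at 199, 270.3 and 379 CPM in the mutants, and Mvk, mevalonate kinase, at 22.0, 21.6 and 21.5 CPM against 22.7, 29.3 and 55.4 CPM. Mutant replicate 1 thus lay close to the controls for both, and replicate 3 was the highest.

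The genes that were lower in the mutant included several of myeloid cells and of connective tissue. Acp5, the tartrate-resistant acid phosphatase of activated macrophages and osteoclasts, was at 121, 177 and 81.7 CPM in the controls and at 41.0, 55.6 and 27.0 CPM in the mutants (log2 difference -1.62 ± 0.44, and -1.39 ± 0.49 without replicate 3). F7, coagulation factor VII, was at 56.9, 65.7 and 47.1 CPM against 20.6, 17.1 and 10.2 CPM (-1.82 ± 0.52, and -1.59 ± 0.58). Both were also lower in unlesioned mutant cord, with log2 differences of -1.65 for Acp5 and -1.81 for F7. Of the 10 leading lower genes, 6 had a p below 0.05 between the genotypes in unlesioned cord, where the 10 leading higher genes had none. In 8 of the 10 the 3 control libraries at 4dpl lay above all 6 unlesioned libraries, Tmem273 and Tmem51 among them. The 10 lower genes were chosen for control libraries above the mutant libraries at 4dpl, which favours this. Its share over all genes is not given. Tmem51 was at 29.4, 36.0 and 18.7 CPM in control and 13.1, 15.4 and 9.35 CPM in mutant libraries at 4dpl. DESeq2 called all 10 with the 6 libraries and 6 of them without replicate 3, while their edgeR adjusted p-values were between 0.19 and 0.355. As for the higher genes, the choice was made in these same libraries, so the counts do not test the genes.

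The largest of these differences was that of Gm28438, an unprocessed pseudogene on chromosome 1 (24612775 to 24613119, GRCm38). It was at 16.7, 11.1 and 30.9 CPM in the controls and at 0.55, 1.07 and 0.99 CPM in the mutants. The mutant mean was 0.0444 of the control mean. In unlesioned cord it was at 0.17, 6.88 and 13.1 CPM in the controls and at 0.55, 0.77 and 0.97 CPM in the mutants. Every mutant-labelled library was thus at or below 1.07 CPM, and so was 1 control library, unlesioned replicate 1. Counts of a pseudogene can share reads with near-identical copies, and this level is uncertain for that reason.

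Several matrix genes were also lower in the mutant at 4dpl. Vcan, the proteoglycan versican, which is deposited in lesions and known to limit oligodendrocyte maturation, was at 23.9, 32.8 and 38.0 CPM in the controls and at 17.5, 19.4 and 16.3 CPM in the mutants (log2 difference -0.83 ± 0.23, and -0.78 ± 0.26 without replicate 3). P4ha2, a prolyl hydroxylase needed for collagen folding, was at 7.43, 6.05 and 3.06 CPM against 2.41, 1.91 and 1.11 CPM. Fbn1, fibrillin, was at 5.82, 6.29 and 2.97 CPM against 1.55, 1.83 and 2.46 CPM, and Fbln2, a fibulin, at 7.62, 13.2 and 6.86 CPM against 2.18, 3.11 and 6.38 CPM. All 4 genes had 3 control libraries above the 3 mutant libraries. Vcan and P4ha2 were chosen for this arrangement, and Fbn1 and Fbln2 for the same arrangement without mutant replicate 3. The arrangement therefore describes these genes and does not test them. Col1a1, a chain of type I collagen, was at 22.6, 46.1 and 17.0 CPM in the controls and at 13.7, 9.34 and 9.39 CPM in the mutants. Col3a1 was at 33.8, 82.9 and 40.4 CPM against 24.4, 12.8 and 15.9 CPM. Control replicate 2 had the highest value for both collagens. In unlesioned cord the log2 differences were 0.16 for Vcan, 0.58 for Col1a1 and 0.81 for Col3a1, of the opposite sign. The difference between the conditions had an unadjusted p of 0.00775, 0.0043 and 0.025 (edgeR interaction term). No gene passed the adjusted threshold for it. These genes were named for their difference at 4dpl, which enters these p-values. Of 8 mural cell and fibroblast markers 6 were lower, with a median of -0.65 and -0.85 without replicate 3, and their share of the matrix result was not tested. Of 16 matrix and protease genes 12 were lower, 4 with a p below 0.05, and 1, Timp2, was higher with a p below 0.05. Over all genes the shares were 1.77% lower and 5.15% higher. Without replicate 3, 1 of the 12 lower genes had a p below 0.05, and the median moved from -0.34 to -0.23.

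**Figure D3:**
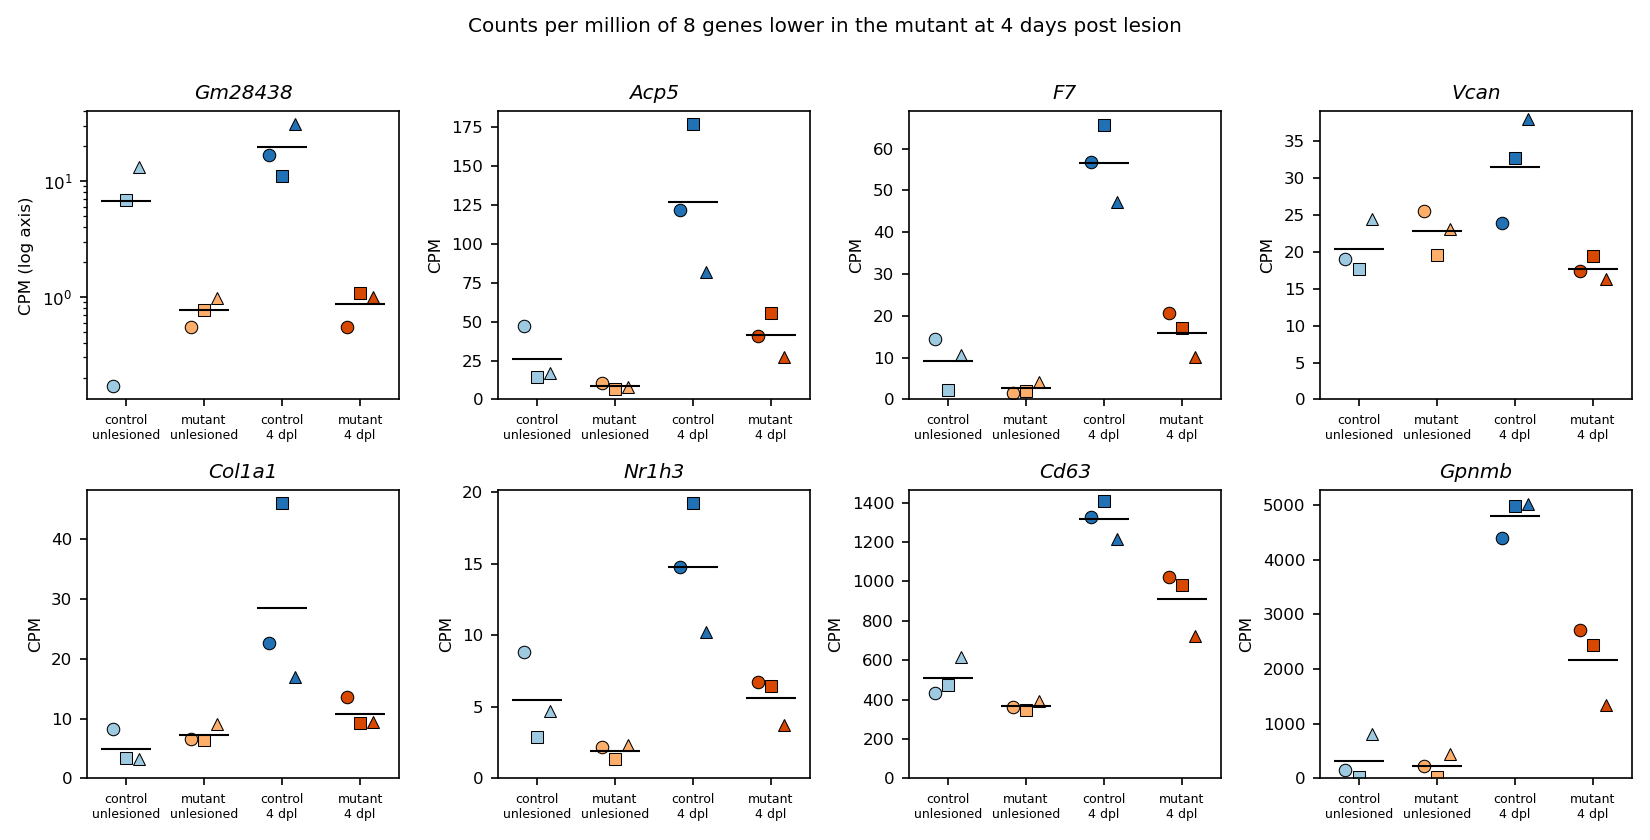
CPM of 8 genes that were lower in the mutant at 4dpl, in each of the 12 libraries, with symbols as in the plot of higher genes and a log axis for Gm28438 only. By group mean, Acp5, F7, Nr1h3, Cd63 and Gpnmb are highest in control cord at 4dpl with the mutant between that level and unlesioned cord. Unlesioned control libraries overlap the mutant libraries at 4dpl for Acp5, F7 and Nr1h3. Vcan and Col1a1 are close between genotypes when unlesioned, and Gm28438 is low in every mutant library.

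Genes of sterol efflux and lipid storage, which lipid-laden phagocytes and other glia use, were lower in the mutant across the list. All 16 genes had a lower fitted mean, with a median of -0.50 (-0.33 without replicate 3, again 16 of 16 lower), 2 with a p below 0.05 and 8 with no overlap of the libraries, against 1.77% and 5.44% of all genes in this direction. DESeq2 called Abcg1, Apoe and Nr1h3 in the 6 libraries, and Apoe and Nr1h3 in the 5. Nr1h3, the sterol-sensing receptor LXR alpha, was at 14.8, 19.3 and 10.2 CPM in the controls and at 6.75, 6.47 and 3.72 CPM in the mutants (log2 difference -1.39 ± 0.41, and -1.16 ± 0.46 without replicate 3). Plin2, the coat protein of lipid droplets, was at 1130, 887 and 551 CPM against 497, 457 and 196 CPM. Nr1h3 was lower in unlesioned mutant cord as well, by a log2 difference of -1.50, and the median of the list there was -0.36. Apoe, the main lipid carrier of the nervous system, was at 17448, 21997 and 20923 CPM in the controls and at 13339, 13179 and 12315 CPM in the mutants. The 3 mutant values of Apoe were close together and replicate 3 did not stand apart.

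Disease-associated microglia genes, a set that microglia raise around damaged myelin, had the same direction. Of 17 genes 15 were lower, with a median of -0.54 and -0.40 without replicate 3. In unlesioned cord the median was -0.44. In 10 of the 17 the libraries at 4dpl did not overlap, against 5.44% of all genes in this direction. In edgeR only Itgax had an unadjusted p below 0.05, while DESeq2 called Apoe and Gpnmb, and not Itgax, in the 6 and in the 5 libraries. Itgax, the integrin subunit CD11c, was at 67.6, 74.6 and 44.2 CPM in the controls and at 42.9, 30.1 and 21.0 CPM in the mutants. Gpnmb, a glycoprotein of lipid-laden phagocytes named here after its values were seen, was at 4399, 4973 and 5022 CPM against 2706, 2443 and 1347 CPM. Cd63, a tetraspanin of late endosomes, was at 1327, 1411 and 1217 CPM against 1023, 979.7 and 724 CPM, and Lgals3, galectin-3, at 1369, 1437 and 927 CPM against 697, 902 and 322 CPM. The mutant stayed well above unlesioned cord for Gpnmb, which was at 805 CPM or less there in both genotypes. The homeostatic microglia list held no such difference, with a median of -0.08 (-0.09 without replicate 3), 5 of 12 genes higher and none with a p below 0.05. Of 11 infiltrating and border macrophage markers 7 were lower, with a median of -0.45 (-0.21 without replicate 3). Pf4, a chemokine of border macrophages and platelets, was at 127, 257 and 75.1 CPM in the controls and at 75.7, 47.5 and 18.8 CPM in the mutants. Arg1, arginase of alternatively activated macrophages, was at 409, 432 and 129 CPM against 104, 56.0 and 30.7 CPM. The groups overlapped for Pf4 and not for Arg1. In unlesioned cord Arg1 was at 407, 15.0 and 20.3 CPM in the controls and at 1.38, 1.93 and 3.83 CPM in the mutants, a log2 difference of -5.96 against -2.35 at 4dpl. The part of cell number in these differences was not tested.

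The remaining immune lists had few members below a p of 0.05. Of 16 cytokines and chemokines 14 were lower with a median of -0.46 (-0.27 without replicate 3), and Ccl9, a chemokine of myeloid cells, was the member with a p below 0.05, at 183, 244 and 161 CPM in the controls and at 104, 149 and 77.5 CPM in the mutants. Interferon-stimulated genes went the other way, with 15 of 16 higher and a median of 0.38 (0.60 without replicate 3), but none had a p below 0.05 in edgeR. Their mean log2 CPM was 5.56 to 5.75 in the controls and 6.55, 5.95 and 5.20 in the mutants, so that replicates 1 and 2 were above the controls and replicate 3 below. Complement (13 genes, median -0.17) turned sign without replicate 3, to 0.04, as did the 22 cell cycle genes, from -0.15 to 0.12. For C1qa, the starter of the classical complement cascade, the groups overlapped at 1409 to 2510 CPM in the controls and 1346 to 1789 CPM in the mutants. Antigen presentation (12 genes) had a median of -0.27 (-0.15 without replicate 3). The 16 phagocytic receptors and bridging molecules had a median of -0.30 (-0.16 without replicate 3), with 1 member at a p below 0.05 and higher.

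Among 23 histone modifiers and chromatin remodelers the median was 0.05, equal to that of all genes (-0.00445 without replicate 3), with 3 members higher at a p below 0.05 and none lower. Psip1 was one of these, and Suz12, a core subunit of Polycomb repressive complex PRC2, at 11.5, 13.5 and 16.9 CPM in the controls and 21.9, 34.9 and 25.2 CPM in the mutants, was another. Without replicate 3 the log2 difference of Suz12 was 1.02 ± 0.31. Of 87 cytosolic ribosomal protein genes 81 were lower, with a median of -0.32 (-0.26 without replicate 3) and 3 at a p below 0.05, and of 85 nuclear genes of oxidative phosphorylation 75 were lower with a median of -0.15 (-0.18 without replicate 3). The libraries did not overlap in this direction for 43 of the 87 and 13 of the 85, against 5.44% of all genes. Both lists were further apart in unlesioned cord, with medians of -0.64 and -0.50. Notch and Wnt readouts (15 genes) had a median of 0.59 with 3 higher at a p below 0.05, and of 0.30 with none without replicate 3. Of these, Nkd1, an inhibitor of Wnt signalling, was at 16.3, 14.3 and 12.4 CPM in the controls and 21.0, 22.4 and 57.6 CPM in the mutants. Growth factors (12 genes, median -0.02, and 0.07 without replicate 3), replication-dependent histone genes (56 genes, median 0.13, and 0.15) and myelin sphingolipid enzymes (13 genes, median 0.29, and 0.00 without replicate 3) completed the lists.

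**Figure D4:**
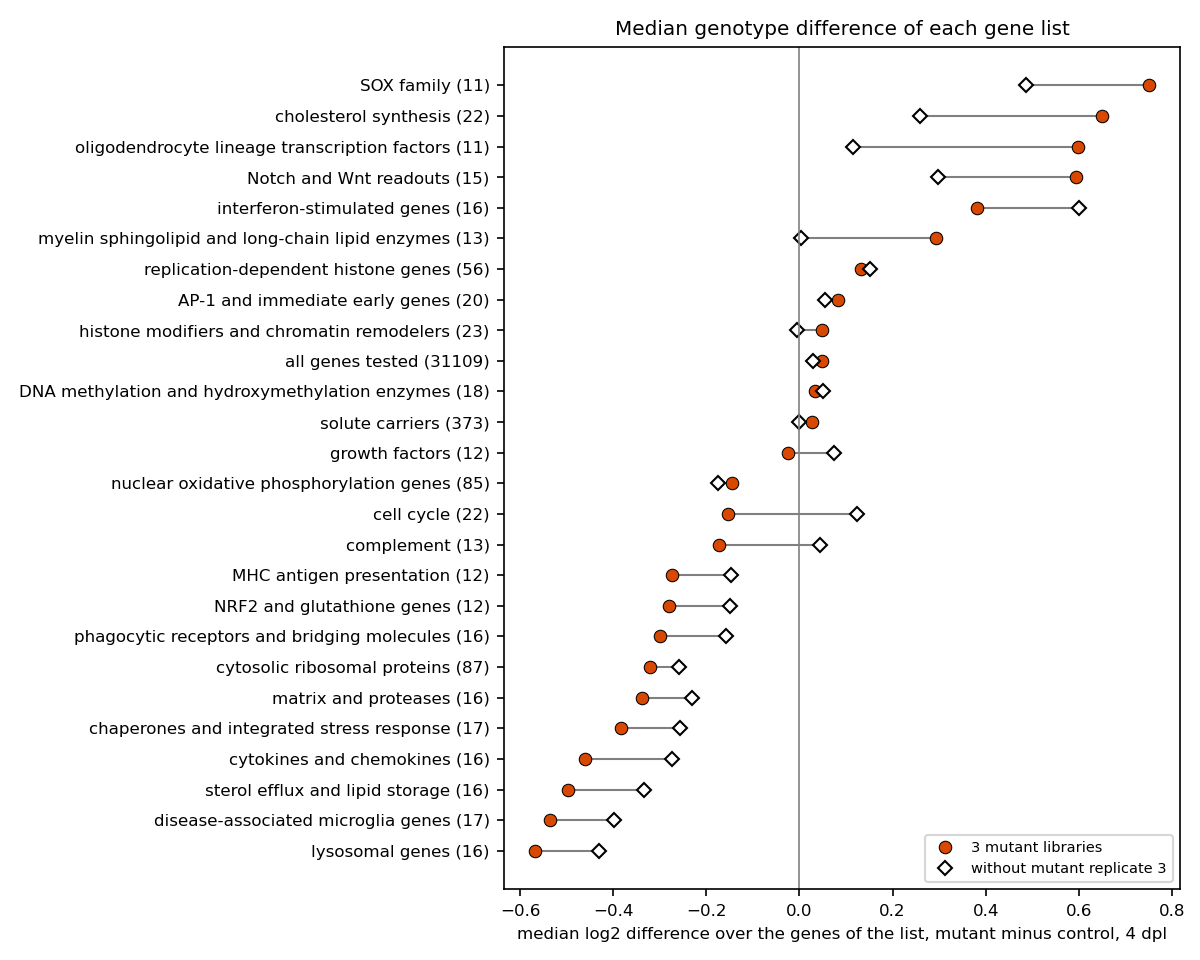
Median log2 difference, mutant minus control at 4dpl, over the tested genes of each list (number in brackets), cell type markers left out, with all 3 mutant libraries (filled circles) and without mutant replicate 3 (open diamonds). Among the lists plotted, the SOX, cholesterol synthesis and oligodendrocyte factor lists lie highest and the lysosomal, disease-associated microglia and sterol efflux lists lowest, and most move toward 0 without replicate 3.

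The genotype difference at 4dpl was compared with that in unlesioned cord by an interaction term, which used all 12 libraries. No gene was called for it by edgeR (smallest adjusted p 0.9999) or by DESeq2, and 1184 of 31109 genes (3.81%) had an unadjusted p below 0.05. For the 10 leading higher genes the unadjusted interaction p was between 0.00017 and 0.00827, with Jund the smallest. For the 10 leading lower genes it was between 0.00775, for Vcan, and 0.987, for F7. These genes were chosen for their difference at 4dpl, which enters the interaction, so these p-values describe the genes and do not test them.

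The differences were also read against the GC content and length of the genes. Genes of more than 65% GC, 36 in number, had a median log2 difference of 0.74, and of 0.46 without replicate 3, while all other GC ranges had medians between -0.01 and 0.16. Jund (67.1% GC, 1 exon) and Hcn2 (65.4% GC) fall in that range, and their log2 differences without replicate 3, 1.81 and 1.94, were larger than its median. Sox4 (51.1% GC), Psip1 (42.5%), Klhdc2 (41.9%) and Abhd17b (37.7%) do not. The part of GC content in the differences of Jund and Hcn2 was not tested. Medians by summed exon length were between -0.07 and 0.08, and genes of 1 exon had a median of 0.02 against 0.03 for the rest.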

How the data were processed

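Raw counts per gene, which the authors deposited without normalization, were used for 12 libraries of 4 groups with 3 libraries each. Per the paper's methods, reads were aligned with BWA to mm10 and counted on exons with featureCounts and an Ensembl GRCm38 annotation. The submitters' processing notes name STAR and DESeq2 1.2.5, so the aligner behind these counts is uncertain. Reads shared between near-identical genes affect such counts most. Each table listed 54838 genes, of which 54723 matched a symbol, and the 37 mitochondrial genes had no counts. Groups came from the sample labels, as did the replicate numbers.

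The main test was edgeR 4.0.16 in R 4.3.3. The filter filterByExpr, given the 4 groups, left 31109 genes, libraries were scaled by TMM, and a model with a mean for each group was fitted to all 12 libraries with glmQLFit and tested with glmQLFTest. Calls needed p below 0.01 and a Benjamini-Hochberg adjusted p below 0.05. The SE was the log2 difference divided by the square root of F. Alternatives were DESeq2 1.42.0, limma 3.58.1 with voom, fits to the 6 or 5 libraries at 4dpl, other size factors, filters and thresholds, a replicate block, a covariate of oligodendrocyte markers, and leaving out each library at 4dpl. The edgeR, DESeq2 and voom fits were tested on simulated data. Marker lists were compared by an exact permutation test, two-sided, in SciPy.

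The comparison, the gene lists and the tests were chosen with earlier results of these data known. Named genes were the TET genes, Olig1, Olig2, Slc12a2 and Slc22a23, the 10 smallest p-values in each direction among genes with a mean log2 CPM of at least 1 and libraries that did not overlap, the 5 smallest in each direction under the same conditions without mutant replicate 3, and the 3 smallest p-values and the highest mean of each list. Not all genes that this rule selects are reported here. Promoter sequences were taken from RefSeq. The study's sorted-cell and hydroxymethylation data were not analysed here.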

Additional observations from a re-analysis of the deposited data

How the results depend on the processing

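The count of called genes depended on the tool. Against 0 genes higher and 0 lower with edgeR in all 12 libraries, DESeq2 called 202 higher and 25 lower in 12 libraries, 510 and 101 in the 6 at 4dpl, and 357 and 68 in the 5 without mutant replicate 3. The calls of the 6 and 5 libraries shared 314 higher genes (61.6% of the first list and 88.0% of the second) and 50 lower genes (49.5% and 73.5%). Voom with sample quality weights, in which mutant replicate 3 had a weight of 0.58 and the other libraries at 4dpl 1.11 to 1.48, called 34 higher and 0 lower, and edgeR with no filter on low counts called 3 and 1. The other alternatives gave 0 calls, including edgeR in the 6 or 5 libraries, RLE size factors, stricter filters, voom without weights and an adjusted p below 0.10. Leaving out each library at 4dpl in turn gave from 0 to 0 calls in either direction, with the smallest adjusted p between 0.0883 and 0.55. A replicate block by label number gave 0 calls and a smallest adjusted p of 0.312. Same-numbered control and mutant libraries had correlations of their deviations from the group mean of 0.003, 0.204 and 0.122, not all above 0.1, so the numbers were not taken to pair the libraries.

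Among the genes whose levels are given above, the log2 difference kept its sign under every alternative except for 3 genes close to 0 or carried by 1 library. Tet2 turned to 0.0402 and 0.0428 in the edgeR and DESeq2 fits to 5 libraries, to 0.00755 with voom weights, and was between -0.0769 and 0.0402 without single libraries. Tet3 turned to -0.0124 and -0.00854 in the fits to 5 libraries, to -0.00484 with no filter and to -0.0151 with the oligodendrocyte covariate, and was between -0.0381 and 0.1496 without single libraries. S100a8 was between -0.21 and 1.20 without single libraries, the lowest without mutant replicate 2. The covariate brought the median of the cholesterol synthesis list from 0.65 to 0.27 and that of the oligodendrocyte factors from 0.60 to 0.03. The neutrophil list turned from 0.76 to -0.21 without mutant replicate 2. The median difference over all genes tested was 0.05 with TMM and 0.01 with RLE. The causes of these shifts were not tested.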
